A study of Mus musculus with 12 samples.

Results

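The kinesin motor genes were taken as all protein-coding mouse genes whose symbol starts with Kif, with or without further letters, and ends in a number with or without the letter a, b or c. Of the 52636 genes in the count files, 21896 were protein-coding and 43 met this rule. By the known role of the protein, 13 were classed as mitotic kinesins, 16 as transport kinesins, 13 as other microtubule-regulating and ciliary kinesins, and 1, Kifap3, as an accessory gene, since it encodes the non-motor subunit of a transport kinesin. Counts were high enough for a test in 39 of the 43. The exceptions were Kif2b, a microtubule depolymerase of the spindle, which had 0 counts in all 12 libraries, and Kif12, Kif17 and Kif28, which had at most 4, 14 and 4 counts in any library.

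The 12 bulk RNA libraries came from breast tumors of 2153L, a GEM (genetically engineered mouse) tumor whose cell type is labelled TNBC, triple-negative breast cancer. All 4 groups were 2153L tumors transplanted to the mammary fat pad in female Balbc mice and taken after 8 days of treatment, with 3 libraries each. They had been transduced with empty vector (EV) or with p53ERTAM, a tamoxifen-inducible p53 in which the protein is joined to a hormone-binding domain of the estrogen receptor. Within each vector mice received vehicle or a combination (combo) of ORIN1001 at 150 mg/kg daily, which inhibits the RNase of the stress sensor IRE1α, and docetaxel at 20 mg/kg weekly, a taxane that stabilises microtubules. The labels do not give the animals' ages, the promoter of the vectors, whether a vector line was 1 clone, or which mice received tamoxifen. They also do not say that replicates came from separate mice, so p-values measure the spread between these samples, which may be technical.

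Kinesins are ATP-driven motors that bind microtubules. Mitotic kinesins build the spindle, move and hold chromosomes, and set up the furrow that separates the daughter cells. Their genes are transcribed mainly late in the cell cycle, and p53 is known to lower many such genes through p21, the product of Cdkn1a, and a repressor complex called DREAM. Transport kinesins carry vesicles, mitochondria and proteins along microtubules in cells that are not dividing as well, and several are known best from neurons. Other kinesins shorten microtubules or work in cilia.

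Levels are given as CPM, counts scaled to library size by TMM factors. As a check of the labels, Cdkn1a was compared between the vectors. Under vehicle it stood at 32.8 ± 10.8 CPM (SD, n = 3) in EV and at 122 ± 33.1 in p53ERTAM. Under combo it stood at 33.8 ± 17.5 in EV and at 181 ± 16.9 in p53ERTAM. Trp53 itself stood between 45.7 ± 8.08 and 61.1 ± 3.72 CPM in the 4 groups. It was higher in p53ERTAM than in EV under combo (log2 fold change 0.40, edgeR adjusted p = 0.0338). Under vehicle it was not called (0.17, edgeR adjusted p = 0.356). Library totals ran from 13484873 to 24424964 counts. The 3 EV combo libraries stood apart: the noncoding RNA Gm26917 took 10.7 to 11.1% of their counts, against 0.133 to 1.104% in the other 9 libraries, and protein-coding genes took 80.9 to 81.7%, against 86.7 to 95.8%. The second p53ERTAM vehicle library had the lowest total and the 86.7%.

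Many late cell-cycle promoters hold the letters TTTGAA close to the start of transcription, an element known as the CHR (cell cycle genes homology region), often with a CCAAT box (CCAAT) upstream. Both were searched on both strands in RefSeq promoters of GRCm38.p6, 250 bases before to 50 bases after each start. The table holds 32851 promoters and matched 34 of the 43 genes. Kif5a, Kif5b, Kif13b, Kif19a, Kif20a, Kif21b, Kif28, Kifc2 and Kifc3 were not matched. TTTGAA stood in 17.9% of all promoters, and in 4.62% it stood within 60 bases before to 30 bases after the start. Of the 12 mitotic kinesin genes with a promoter, 10 held it (83.3%) and 8 held it in the narrower window (66.7%). Among the 10, Kif14 and Kif2c were searched only at a start inside the gene. Of 10 transport kinesin genes 1 held it, Kif1a, in the narrower window of 1 of its 2 promoters. Of the 11 other kinesins Kif26b, Kif27 and Kifc5b held it, Kif26b in the narrower window. CCAAT stood in 8 of 12 mitotic, 3 of 10 transport and 5 of 11 other kinesin genes, against 37.4% of all promoters. The 2 motifs can overlap by at most 1 base, and a match is a description of the sequence, not a binding site.

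The 8 mitotic kinesin promoters with TTTGAA in the narrower window are printed from 60 bases before to 30 bases after the start, 5′ to 3′ on the gene's strand. Capitals mark TTTGAA or its reverse complement TTCAAA. The windows are Kif11 at chr19:37376322-37376411 (plus strand), Kif15 at chr9:122951021-122951110 (plus strand), Kif22 at chr7:127042391-127042480 (minus strand), Kif23 at chr9:61946770-61946859 (minus strand), Kif18b at chr11:102925095-102925184 (minus strand), Kifc1 at chr17:33890604-33890693 (minus strand), Kif20b at chr19:34922298-34922387 (plus strand) and Kif4 at chrX:100626005-100626094 (plus strand).
Kif11: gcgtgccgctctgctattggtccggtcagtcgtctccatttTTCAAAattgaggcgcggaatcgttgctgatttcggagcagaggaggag
Kif15: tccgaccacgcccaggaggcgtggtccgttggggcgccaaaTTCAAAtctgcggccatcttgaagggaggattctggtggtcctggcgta
Kif22: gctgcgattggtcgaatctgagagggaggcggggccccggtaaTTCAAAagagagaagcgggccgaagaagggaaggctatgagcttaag
Kif23: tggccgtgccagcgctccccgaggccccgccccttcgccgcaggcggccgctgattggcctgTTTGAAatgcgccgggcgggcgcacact
Kif18b: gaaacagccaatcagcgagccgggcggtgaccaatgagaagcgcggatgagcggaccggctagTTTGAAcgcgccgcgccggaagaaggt
Kifc1: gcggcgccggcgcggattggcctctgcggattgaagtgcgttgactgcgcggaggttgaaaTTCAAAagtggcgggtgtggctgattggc
Kif20b: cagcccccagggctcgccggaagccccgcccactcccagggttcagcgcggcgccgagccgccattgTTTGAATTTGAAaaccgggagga
Kif4: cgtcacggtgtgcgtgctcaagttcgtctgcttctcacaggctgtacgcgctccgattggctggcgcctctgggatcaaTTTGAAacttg

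For comparison, 3 windows without the letters are shown: Kif18a at chr2:109280678-109280767 (plus strand), Kif5c at chr2:49619226-49619315 (plus strand), Kif7 at chr7:79715678-79715767 (minus strand). They belong to the mitotic kinesin Kif18a, which has no TTTGAA in the whole promoter, and to Kif5c and Kif7, a transport kinesin and a ciliary kinesin described below.
Kif18a: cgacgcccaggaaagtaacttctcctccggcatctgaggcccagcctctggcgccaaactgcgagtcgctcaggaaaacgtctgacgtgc
Kif5c: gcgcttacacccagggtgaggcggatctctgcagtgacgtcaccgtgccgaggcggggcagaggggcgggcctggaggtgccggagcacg
Kif7: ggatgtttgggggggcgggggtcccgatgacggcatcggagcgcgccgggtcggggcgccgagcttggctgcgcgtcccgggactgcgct

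In Kif11, Kif15 and Kif22 the element lay on the opposite strand just before the start, at -19 to -14 in the first 2 and at -17 to -12 in Kif22. In Kif23, Kif18b, Kifc1, Kif20b and Kif4 it lay just after the start, and Kif20b held 2 copies in direct succession, at 8 to 13 and at 14 to 19. Kif14 and Kif2c held it farther away, at -228 to -223 and at -103 to -98. For both genes the only start searched lay inside the gene as counted. The Kif14 window began at chr1:136467788 and the gene at 136466343 (plus strand). The Kif2c window ended at chr4:117178832 and the gene at 117182639 (minus strand). Their outer promoters were not searched. Kif18b had a CCAAT box at -53 to -49 and another at -30 to -26, and Kif11 had a CCAAT box on the opposite strand at -45 to -41.

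Under vehicle all 12 measured mitotic kinesin genes were lower in p53ERTAM than in EV tumors, while transport kinesins went both ways. The fall ran from -0.47 (Kif18a) to -1.49 (Kif11) on the log2 scale, with a median of -0.99. In each of the 12 the 3 p53ERTAM libraries lay below the 3 EV libraries. Over all 17970 genes tested 37.8% were called in this comparison (edgeR adjusted p below 0.05), 19.8% as lower, and 24.1% were lower with no overlap between the groups. The median over all genes was 0.0062. Among the 13911 protein-coding genes tested 24.5% were called lower.

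**Figure D1:**
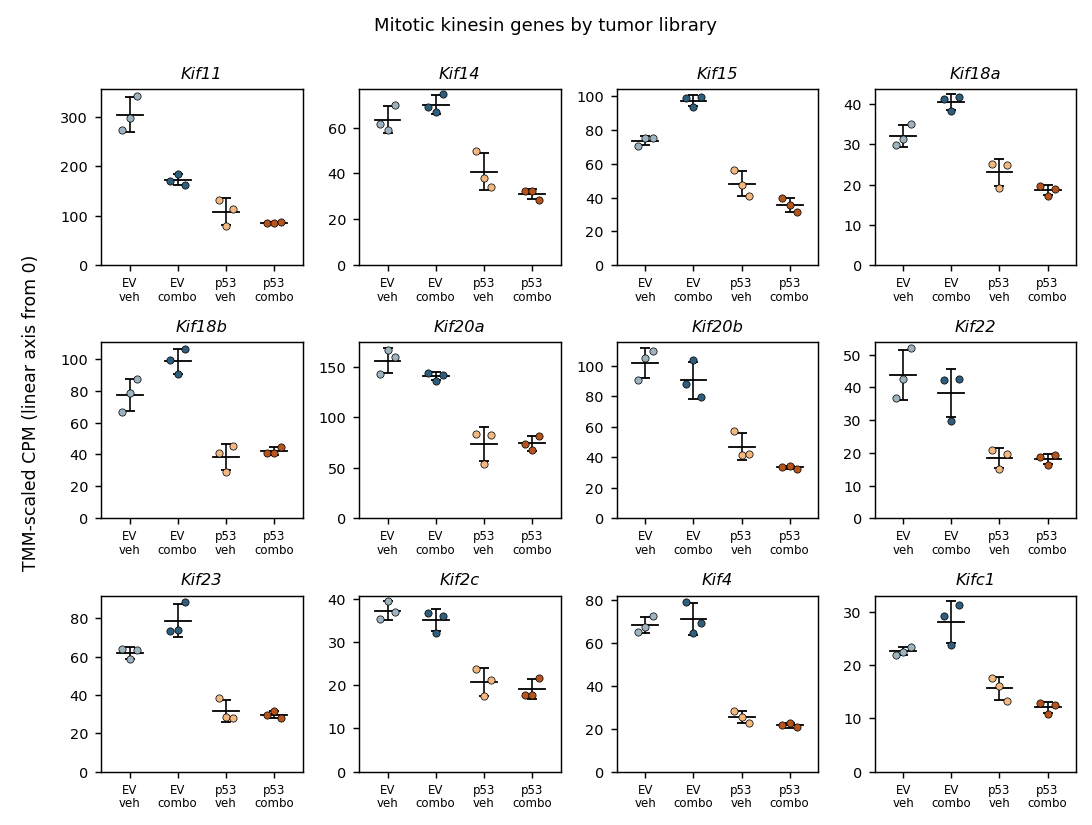
TMM-scaled CPM (y axis, linear from 0) of the 12 measured mitotic kinesin genes in each library, by group (x axis: EV or p53ERTAM, vehicle or combo); points are libraries, bars the mean and SD of 3. In every panel the 6 p53ERTAM libraries lie below the 6 EV libraries, and Kif11 is the panel where the EV combo libraries (163 to 185 CPM) lie well below the EV vehicle libraries (273 to 343 CPM).

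Kif11, Kif4 and Kif22 had the 3 largest falls. Kif11, which pushes the spindle poles apart, was at 273, 297 and 343 CPM in EV vehicle and at 132, 78.7 and 114 in p53ERTAM vehicle (log2 fold change -1.49, SE 0.155, edgeR adjusted p = 4.14e-05). The gap between the groups was wider than the range within either. Kif4, a chromosome-bound motor that works in chromosome compaction and in the central spindle, was at 65.2, 67.2 and 72.3 CPM against 28.5, 25.3 and 22.5 (-1.42, SE 0.119, edgeR adjusted p = 1.11e-05). Kif22, a second chromosome-bound motor, which pushes chromosome arms away from the poles, was at 36.8, 42.6 and 51.9 CPM against 20.8, 14.98 and 19.6 (-1.24, SE 0.181, edgeR adjusted p = 0.000276). Kif4 and Kif22 each have a pseudogene copy, so some of their reads may be shared. Exons of Kif4 also overlap the opposite-strand gene Pdzd11 over 15.1% of its length, and the strand setting of the counting is not given in the sources used here.

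Kif15 and Kif18a were lower by less, and Kif18b by more. Kif15, which can support a bipolar spindle beside Kif11, was at 70.7, 75.2 and 75.1 CPM in EV vehicle and at 56.2, 47.6 and 41.0 in p53ERTAM vehicle (-0.61, SE 0.123, edgeR adjusted p = 0.00208). Kif18a, which shortens the swings of chromosomes as they line up, was at 29.9, 31.3 and 35.1 CPM against 25.2, 19.2 and 24.9 (-0.47, SE 0.131, edgeR adjusted p = 0.0128). Its call was lost without the third EV vehicle library and in a fit of only the 2 groups (edgeR adjusted p = 0.0582 to 0.0637). Kif18b, a relative that trims astral microtubules, was at 66.7, 78.2 and 87.1 CPM against 40.8, 29.0 and 45.2 (-1.01, SE 0.152, edgeR adjusted p = 0.000347). The difference between Kif18b and Kif18a was not tested.

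Kif20a, Kif20b, Kif23 and Kif14, which work in the central spindle and in cytokinesis, were each lower. Kif20a, which brings the Aurora B complex to the central spindle, was at 143, 166 and 160 CPM in EV vehicle and at 83.1, 53.9 and 82.9 in p53ERTAM vehicle (-1.09, SE 0.147, edgeR adjusted p = 0.000182). Kif20b, its relative, was at 91.0, 105 and 110 CPM against 57.2, 41.8 and 42.0 (-1.11, SE 0.140, edgeR adjusted p = 0.000117). Kif23, which forms the centralspindlin complex with Racgap1, was at 64.0, 58.5 and 63.5 CPM against 38.4, 28.4 and 27.9 (-0.97, SE 0.135, edgeR adjusted p = 0.000212). These 3 genes stood at about the same fold change. Kif14, which binds citron kinase at the midbody, was at 61.8, 58.8 and 69.9 CPM against 49.97, 38.2 and 34.2 (-0.64, SE 0.137, edgeR adjusted p = 0.00308). Exons of Kif20a overlap those of the opposite-strand gene Cdc23 over 33.2% of its length.

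The depolymerase Kif2c, which corrects faulty attachments of chromosomes to the spindle, was lower, at -0.84 (SE 0.141, edgeR adjusted p = 0.000679). Kifc1, a minus-end-directed motor that gathers extra centrosomes into 2 poles, was at 22.0, 22.4 and 23.4 CPM in EV vehicle and at 17.6, 16 and 13.2 in p53ERTAM vehicle (-0.53, SE 0.153, edgeR adjusted p = 0.0150), and its call was lost without the third p53ERTAM vehicle library (edgeR adjusted p = 0.0517 to 0.0532 there and in a fit of only the 2 groups). Kifc5b, a close mouse copy of Kifc1 classed with the other kinesins, was at 11.3, 14.3 and 12.4 CPM against 10.6, 12.9 and 7.93, with overlap (-0.28, SE 0.186, edgeR adjusted p = 0.258). Reads of Kifc1 and Kifc5b may be split between the copies.

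Under combo the same 12 mitotic kinesins were again all lower in p53ERTAM than in EV tumors, with no overlap in any of them. Over all genes 44.1% were called, 22.0% as lower, and 29.4% were lower without overlap. The mitotic median was -1.20 (range -1.72 to -0.88), against 0.062 over all genes, and 19.5% of the protein-coding genes were called lower. The comparisons under vehicle and under combo share no library, but both come from the same fit and contrast the same vectors.

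Kif4 was lowest relative to EV: 79.1, 64.8 and 69.4 CPM in EV combo against 21.5, 22.8 and 20.6 in p53ERTAM combo (-1.72, SE 0.120, edgeR adjusted p = 1.25e-06). Kif15 was at 99.0, 93.3 and 99.3 CPM against 39.7, 35.4 and 31.7 (-1.45, SE 0.125, edgeR adjusted p = 4.44e-06). Kif20b was at 88.0, 104 and 79.6 CPM against 33.9, 34.1 and 32.5 (-1.43, SE 0.141, edgeR adjusted p = 1.11e-05). In these 3 genes the gap between the groups was wider than the range within either. Kif23 was at 73.5, 73.8 and 88.7 CPM against 29.6, 31.7 and 28.0 (-1.40, SE 0.136, edgeR adjusted p = 9.37e-06). Kif18b was at 98.9, 90.1 and 106 CPM against 40.7, 40.9 and 44.8 (-1.22, SE 0.152, edgeR adjusted p = 5.38e-05). Kif14 was at 69.0, 66.7 and 74.5 CPM against 32.3, 32.4 and 28.6 (-1.17, SE 0.138, edgeR adjusted p = 3.72e-05). All 6 genes shared this separation of the groups.

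Kifc1 was at 29.3, 23.7 and 31.2 CPM in EV combo and at 12.9, 10.8 and 12.4 in p53ERTAM combo (-1.22, SE 0.154, edgeR adjusted p = 6.01e-05). Kif18a was at 41.4, 38.4 and 41.9 CPM against 19.7, 17.2 and 18.9 (-1.12, SE 0.132, edgeR adjusted p = 3.62e-05). Kif22 was at 42.3, 29.7 and 42.4 CPM against 18.7, 16.2 and 19.3 (-1.08, SE 0.180, edgeR adjusted p = 0.000425). Kif11 differed less here than under vehicle in the fitted value, with 171, 185 and 163 CPM against 84.7, 85.5 and 88.0 (-1.01, SE 0.154, edgeR adjusted p = 0.000227). Kif20a was at 144, 136 and 142 CPM against 73.7, 67.3 and 81.9 (-0.92, SE 0.147, edgeR adjusted p = 0.000312). Kif2c was lower, at -0.88 (SE 0.141, edgeR adjusted p = 0.000322), the smallest fall of the 12.

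**Figure D2:**
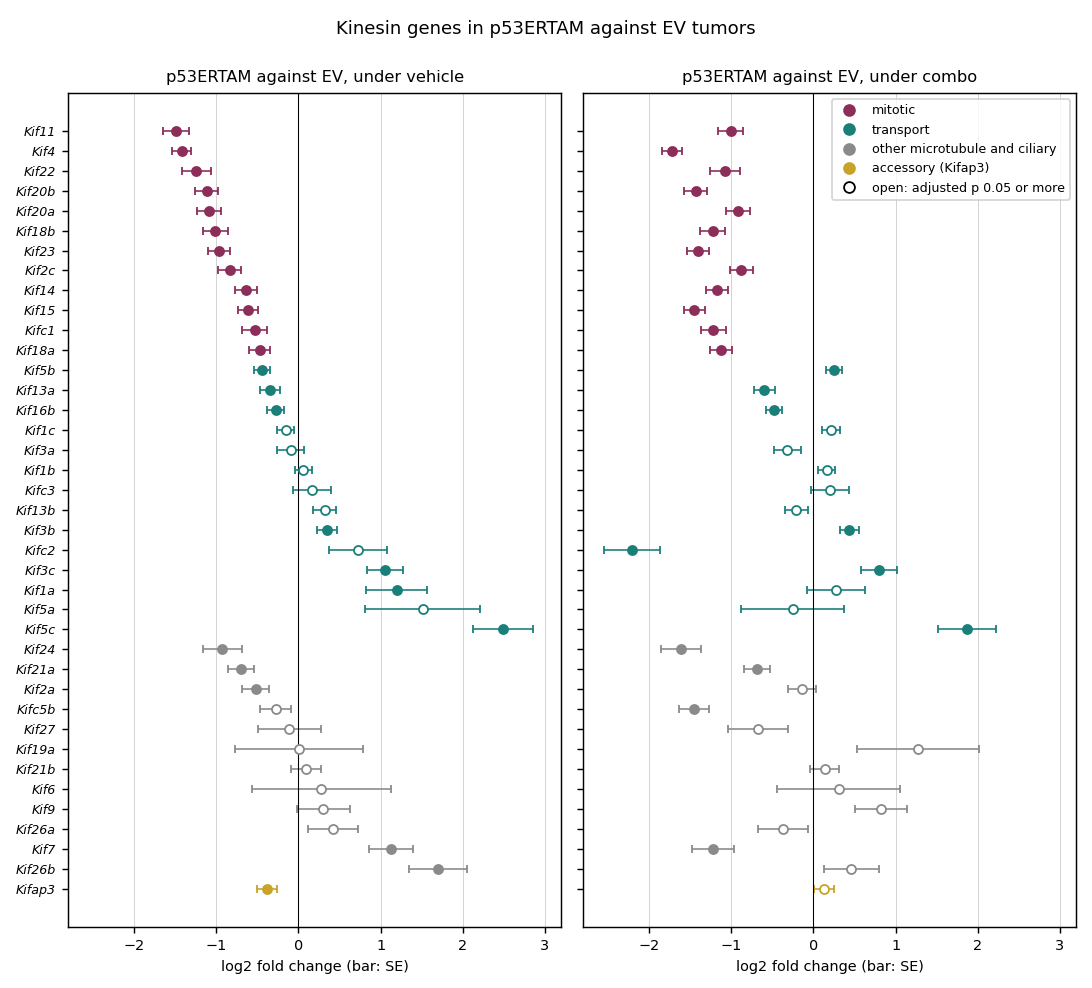
Log2 fold change of p53ERTAM against EV tumors (x axis; bars: SE) for the 39 measured kinesin genes (y axis), under vehicle (left) and under combo (right), coloured by class, with filled points for an edgeR adjusted p below 0.05. All 12 mitotic kinesins are filled and left of 0 in both panels, from -1.49 to -0.47 under vehicle and from -1.72 to -0.88 under combo, and the transport kinesins lie on both sides of 0.

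Summed over the 13 mitotic kinesins, the level in TPM, which allows for gene length, was 569.5 to 679 in EV and 198 to 348 in p53ERTAM under vehicle, and 616 to 656 in EV and 270.1 to 282 in p53ERTAM under combo. The same sums over the 16 transport kinesins were 433 to 514 and 372 to 448 under vehicle, and 433 to 449 and 439 to 470.5 under combo. The groups of the 2 vectors did not overlap for the mitotic sum and overlapped for the transport sum. The mean of log2(TPM + 1) over the mitotic kinesins was 4.72 to 4.90 in EV and 3.59 to 4.21 in p53ERTAM under vehicle, and 4.93 to 5.07 and 3.87 to 3.89 under combo. For the transport kinesins this mean was 3.23 to 3.31 in EV and 3.45 to 3.48 in p53ERTAM under vehicle, without overlap. Under combo it was 3.57 to 3.71 and 3.55 to 3.62, with overlap. The second p53ERTAM vehicle library gave the lowest mitotic value of all. Without it all 12 mitotic kinesins were again called lower under vehicle.

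The companions of these motors moved the same way. Of 24 mitotic partners of kinesins (kinases, passenger and centralspindlin proteins, spindle scaffolds), 22 were lower under vehicle (median -0.997) and 22 under combo (median -0.89), and none was higher. Incenp, the scaffold of the Aurora B complex that Kif20a carries, was lower, at -1.11 (SE 0.108, edgeR adjusted p = 3.01e-05) under vehicle and -1.26 (SE 0.108, edgeR adjusted p = 4.44e-06) under combo. Racgap1, the partner of Kif23, was lower, at -1.26 under combo (SE 0.146, edgeR adjusted p = 3.38e-05). Mki67, a marker of dividing cells, was lower, at -1.24 (SE 0.149, edgeR adjusted p = 9.52e-05) and -1.18 (SE 0.149, edgeR adjusted p = 6.15e-05). The exceptions were Numa1, a spindle pole protein, in both comparisons (-0.01 and -0.14, edgeR adjusted p = 0.962 and 0.377), Cit, the citron kinase bound by Kif14, under vehicle (-0.33, edgeR adjusted p = 0.134) and Ect2, a regulator of the cleavage furrow, under combo (-0.39, edgeR adjusted p = 0.0665).

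Of 20 regulators of late cell-cycle transcription, 13 were lower under vehicle (median -0.58) and 11 under combo (median -0.32), with none higher. E2f8, a repressor of the E2F family that is itself cell-cycle regulated, was lower, at -1.87 (SE 0.174, edgeR adjusted p = 2.32e-05) and -1.34 (SE 0.172, edgeR adjusted p = 6.72e-05). Mybl2, the B-Myb activator of late cell-cycle genes, was lower, at -0.95 (SE 0.127, edgeR adjusted p = 0.000178) and -1.69 (SE 0.130, edgeR adjusted p = 2.02e-06). Foxm1, a further activator of mitotic genes, was lower, at -0.85 (SE 0.123, edgeR adjusted p = 0.000161) under combo. In bulk tumors fewer dividing cells and less RNA per cell cannot be told apart. Markers of other cell types moved as well: under vehicle 7 of 8 epithelial markers were lower in p53ERTAM (summed 2984 to 3857 CPM in EV, 1550.0 to 2006 in p53ERTAM) and 5 of 8 fibroblast markers higher (524 to 563 against 1452 to 3733 CPM), and under combo 7 of 8 macrophage markers were higher (329 to 445 against 1022 to 1472 CPM). Their part in these results was not tested.

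Transport kinesins showed no common direction between the vectors. Under vehicle 4 of 14 measured were higher in p53ERTAM (Kif1a, Kif3b, Kif3c and Kif5c) and 3 lower (Kif5b, Kif13a and Kif16b), with a median of 0.24. Under combo 4 were higher (Kif3b, Kif3c, Kif5b and Kif5c) and 3 lower (Kif13a, Kif16b and Kifc2), with a median of 0.18. Over all genes 17.9% were called higher and 19.8% lower under vehicle, and 22.1% higher and 22.0% lower under combo.

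Of the kinesin-1 heavy chains, which carry vesicles and mitochondria, Kif5b was lower and Kif5c higher in p53ERTAM under vehicle, and both were higher under combo. Kif5b, the chain found in most tissues, had the highest mean TPM of the kinesin genes over the 12 libraries (159, against 114 for Kif11), but in EV vehicle the 2 genes were level: Kif11 at 176, 196 and 222 TPM and Kif5b at 195, 179 and 218. Kif5b was at 464, 416 and 517 CPM in EV vehicle and at 361, 314 and 353 in p53ERTAM vehicle (-0.44, SE 0.0972, edgeR adjusted p = 0.00343), and under combo it was higher by 0.25 (edgeR adjusted p = 0.0482), a call described further below. Kif5c, known best from neurons, was at 1.09, 3.86 and 2.71 CPM in EV vehicle and at 11.1, 16.4 and 15.9 in p53ERTAM vehicle (2.49, SE 0.363, edgeR adjusted p = 0.000283). Under combo it was at 5.39, 5.27 and 3.08 CPM in EV and at 15.8, 15.8 and 18.4 in p53ERTAM (1.87, SE 0.352, edgeR adjusted p = 0.00101). All 6 p53ERTAM libraries lay above all 6 EV libraries. Kif5a, the third heavy chain, stayed at or below 1.71 CPM in every library and was not called between the vectors (1.51 and -0.25, edgeR adjusted p = 0.105 and 0.768). Per length, Kif5c came to 0.242 to 0.960% of the Kif5b level in EV and 3.17 to 5.42% in p53ERTAM under vehicle, and to 1.12 to 1.92% and 4.69 to 5.46% under combo, so Kif5b stood far above Kif5c in every library. This ratio was chosen after its values were seen.

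Of 12 neuron markers only Map2 and Uchl1 had enough counts for a test. Uchl1 was at 2.13 ± 0.18 CPM in EV and 11.1 ± 1.36 in p53ERTAM under vehicle, and at 2.43 ± 1.88 and 12.9 ± 3.23 under combo. The defining markers Snap25, Syt1, Elavl4 and Rbfox3 had at most 6 counts in any library. The 12 markers summed to 86.1 to 140 CPM in EV vehicle and to 88.7 to 113 in p53ERTAM vehicle, but Map2 made up most of this (107 ± 27.5 and 90.2 ± 10.7 CPM). The other 11 summed to 2.40 to 3.45 and to 9.98 to 12.7 CPM, and without Uchl1 as well the remaining 10 summed to 0.104 to 1.28 and to 0.440 to 0.793 CPM. Some Schwann cell markers were higher together with Kif5c: under vehicle 3 of 8 were higher and 1 lower, and under combo 3 higher and 1 lower. Among them Cdh19 was at 0.497 ± 0.688 CPM in EV and 11.4 ± 3.05 in p53ERTAM under vehicle, and S100b at 0.163 ± 0.116 and 1.25 ± 0.640. The 8 summed to 801 to 904 CPM in EV vehicle and to 718 to 897 in p53ERTAM vehicle, with overlap. The part of these markers in the Kif5c values was not tested.

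Among the kinesin-2 motors, which work in cilia and on vesicles, Kif3c was higher in p53ERTAM, at 30.6, 40.5 and 32.8 CPM against 18.4, 18.6 and 12.9 under vehicle (1.05, SE 0.217, edgeR adjusted p = 0.00236) and at 29.8, 31.8 and 32.7 against 23.4, 19 and 11.96 under combo (0.80, SE 0.216, edgeR adjusted p = 0.00948). Exons of Kif3c overlap those of the opposite-strand 1110002L01Rik over 35.3% of its length. Kif3b was higher by 0.35 (SE 0.118, edgeR adjusted p = 0.0332) and 0.44 (SE 0.119, edgeR adjusted p = 0.00951). Its partner Kif3a was not called (-0.09 and -0.32, edgeR adjusted p = 0.672 and 0.125), and their shared subunit Kifap3 was lower under vehicle (-0.38, SE 0.122, edgeR adjusted p = 0.0262) and at 0.13 under combo (edgeR adjusted p = 0.413). Kif1a, a carrier of synaptic vesicle precursors, was higher under vehicle (1.19, SE 0.374, edgeR adjusted p = 0.0230) at levels of only 0.839 to 1.67 CPM in EV and 2.33 to 2.94 in p53ERTAM. The vehicle calls of Kif3b, Kif1a, Kifap3, Kif13a and Kif16b were each lost in 5 to 15 refits with another setting or without a library.

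**Figure D3:**
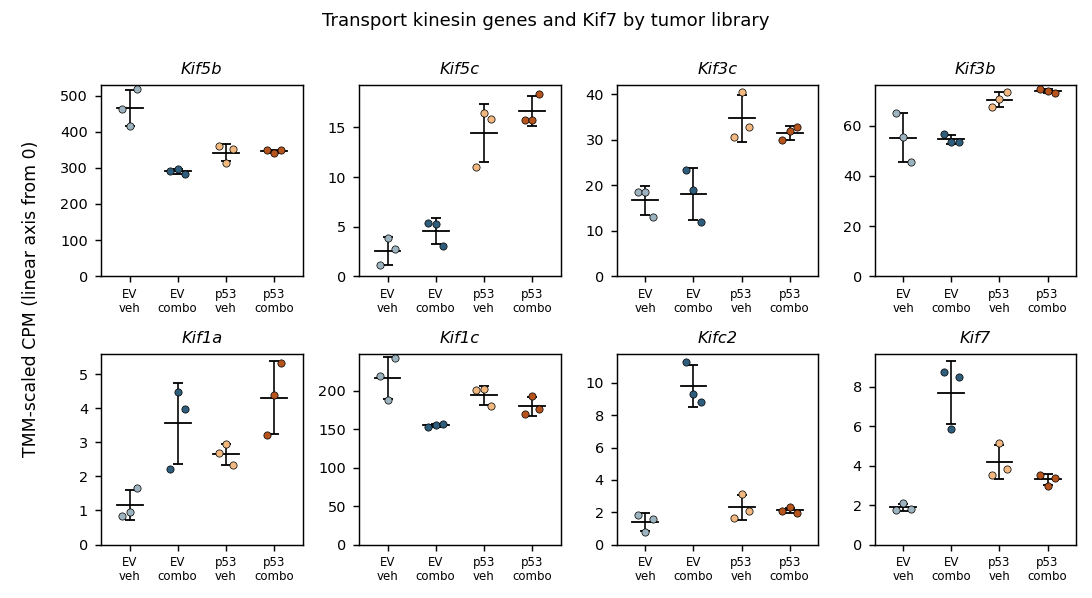
TMM-scaled CPM (y axis, linear from 0) of 7 transport kinesin genes and of the ciliary kinesin Kif7 in each library, by group (x axis); points are libraries, bars the mean and SD of 3. Kif5c lies at 11.1 to 18.4 CPM in p53ERTAM and 1.09 to 5.39 in EV, while Kifc2 and Kif7 are highest in EV combo (8.83 to 11.3 and 5.85 to 8.76 CPM).

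The other kinesins held 2 genes higher and 3 lower of 12 in p53ERTAM under vehicle, and 0 higher and 4 lower under combo. The shares over all genes were 17.9% higher and 19.8% lower under vehicle, and 22.1% and 22.0% under combo. Kif24, which trims microtubules at the mother centriole and restrains cilium growth, was lower in both: 15.7, 21.5 and 25.9 CPM in EV vehicle against 13.2, 11.5 and 8.51 (-0.93, SE 0.238, edgeR adjusted p = 0.00853), and 26.8, 23.8 and 35.4 in EV combo against 8.30, 11.9 and 8.04 (-1.61, SE 0.240, edgeR adjusted p = 0.000190). Kif21a, a regulator of microtubule growth, was lower, at -0.70 (SE 0.157, edgeR adjusted p = 0.00407) and -0.69 (SE 0.157, edgeR adjusted p = 0.00356). Kif2a, a depolymerase used in dividing and resting cells, was lower under vehicle (-0.52, SE 0.168, edgeR adjusted p = 0.0262), a call lost with voom, in a fit of only the 2 groups, without the third EV vehicle library and without the second p53ERTAM vehicle library (adjusted p = 0.0582 to 0.110). Under combo it was at -0.14 (edgeR adjusted p = 0.531), with an interaction of 0.38 (adjusted p = 0.222). Kif26b, which lacks motor activity, was higher under vehicle (1.70, SE 0.349, edgeR adjusted p = 0.00242), with 4.14, 6.67 and 3.65 CPM in EV and 9.32, 23.6 and 14.3 in p53ERTAM. Kifc5b was lower under combo, at 7.25, 7.40 and 8.55 CPM against 21.3, 21.7 and 20.7 (-1.45, SE 0.188, edgeR adjusted p = 7.13e-05).

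Combo against vehicle in EV tumors changed 10 of the 39 kinesin genes, 7 higher and 3 lower. Over all genes 39.9% were called, 18.8% higher and 21.1% lower, with a median of -0.067. Of the 13911 protein-coding genes tested 1943 were higher and 3505 lower, with a median of -0.13. The 3 lower genes were Kif11, Kif5b and Kif1c. Of the 12 mitotic kinesins 1 was higher, Kif15, and 1 lower, Kif11. Cell type markers moved in this comparison too: 6 of 8 fibroblast markers were higher (summed 524 to 563 CPM in EV vehicle, 998 to 1956 in EV combo) and 4 of 8 epithelial markers lower (2984 to 3857 against 1877 to 2287 CPM). Their part in the kinesin values was not tested.

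Kif11 went from 273, 297 and 343 CPM in EV vehicle to 171, 185 and 163 in EV combo (-0.81, SE 0.153, edgeR adjusted p = 0.00136). Kif15 went from 70.7, 75.2 and 75.1 to 99.0, 93.3 and 99.3 CPM (0.40, SE 0.122, edgeR adjusted p = 0.0191). The groups did not overlap for either gene. The ratio of Kif11 to Kif15 counts within a library was 3.86 to 4.57 in EV vehicle and 1.64 to 1.98 in EV combo, and 1.65 to 2.78 and 2.13 to 2.78 in p53ERTAM vehicle and combo. This ratio was also chosen after its values were seen. Kif4 (0.06, edgeR adjusted p = 0.714), Kif20a (-0.15, adjusted p = 0.426) and Kif23 (0.34, adjusted p = 0.0538) were not called. The Kif15 call was lost without the first or the third EV combo library (edgeR adjusted p = 0.0544 to 0.0568), and its sign turned when counts were offset for GC content and gene length (-0.08). With those offsets, which were added after seeing the data, no mitotic kinesin was called higher and 3 were called lower (Kif11, Kif18a and Kif20b), while DESeq2 called 5 higher and 1 lower.

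The largest rises with combo in EV tumors were of low-abundance genes. Kifc2, a minus-end-directed motor known from dendritic transport, went from 1.83, 0.746 and 1.56 CPM to 11.3, 9.32 and 8.83 (2.83, SE 0.354, edgeR adjusted p = 0.000161). Kif7, which sits at the tip of the primary cilium and controls hedgehog signaling, went from 1.78, 2.11 and 1.82 to 8.76, 5.85 and 8.49 CPM (2.01, SE 0.268, edgeR adjusted p = 0.000230). In both genes every combo library lay above every vehicle library. Kif1a rose by 1.62 (SE 0.374, edgeR adjusted p = 0.00440), Kif26b by 1.42 (SE 0.348, edgeR adjusted p = 0.00626) and Kifc5b by 0.74 (SE 0.185, edgeR adjusted p = 0.00663). Kif5a, at no more than 1.71 CPM, rose by 1.91 (SE 0.694, edgeR adjusted p = 0.0417), a call lost in 9 refits.

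Among the transport motors Kif5b went from 464, 416 and 517 CPM in EV vehicle to 291, 298 and 283 in EV combo (-0.68, SE 0.0975, edgeR adjusted p = 0.000317). Kif1c, a carrier of dense vesicles and mRNA, fell by 0.48 (SE 0.104, edgeR adjusted p = 0.00304). These calls rest on the EV combo libraries with the high Gm26917 share, and the part of that share in them was not tested. When only protein-coding genes were used, 16 kinesin genes were called in place of 10.

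The companions of the transport motors went both ways in the same comparison, in which 18.8% of all genes were called higher and 21.1% lower. Of 20 transport adaptors and light chains measured, 5 were higher and 4 lower. Of the 13911 protein-coding genes tested, 1943 were higher and 3505 lower. Madd, an adaptor of Kif1a and Kif1b, rose by 1.14 (SE 0.126, edgeR adjusted p = 0.000102), Mapk8ip3, a kinesin-1 adaptor, by 1.35 (SE 0.185, edgeR adjusted p = 0.000272), and Klc1, a kinesin-1 light chain, by 0.79 (SE 0.172, edgeR adjusted p = 0.00318). Arl8b, which couples lysosomes to kinesin-1, fell by 0.68 (SE 0.127, edgeR adjusted p = 0.00128). Of 22 dynein and dynactin genes, which move cargo the opposite way, 2 were higher and 8 lower (median -0.23): Dync1h1, the heavy chain, rose by 0.59 (SE 0.0925, edgeR adjusted p = 0.000528), and the light chain Dynlt3 fell by 0.88 (SE 0.152, edgeR adjusted p = 0.000835). Of 18 intraflagellar transport and hedgehog genes, the companions of Kif3a, Kif3b and Kif7 in the cilium, 4 were higher and 2 lower. Ift172, a train subunit, rose by 1.14 (SE 0.178, edgeR adjusted p = 0.000506), and Ift81 by 0.59 (SE 0.109, edgeR adjusted p = 0.00129). Of 7 ciliated-cell markers 4 had enough counts for a test, and 1 of these was higher, Ccdc39 (0.261 ± 0.286 CPM in EV vehicle, 1.02 ± 0.277 in EV combo). Foxj1, a transcription factor of ciliated cells, was at 4.02 ± 2.13 and 5.10 ± 0.416 CPM, Tekt1, Dnah5 and Dnah9 had at most 4 counts in any library, and the 7 summed to 3.13 to 8.34 and to 7.15 to 7.98 CPM. Their part in the values of the cilium genes was not tested.

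In p53ERTAM tumors combo against vehicle gave no call among the 39 kinesin genes by edgeR, against 6.28% of all genes (3.30% higher, 2.98% lower). An unadjusted p below 0.05 was seen for 8 of them, of which 6 were mitotic and none was a transport kinesin. The share of all genes with such a p was not taken, so these counts cannot be set against a background and show no difference between the classes. DESeq2 called 2, Kif15 and Kif20b, both lower, and limma-voom with sample weights called 6, namely Kif11, Kif14, Kif15, Kif18a and Kif20b lower and Kif21b higher. Over all 17970 genes DESeq2 called 2353 and voom 3748, a larger share with each tool than among the kinesin genes. The mitotic median was -0.27, with 10 of 12 values below 0, and the transport median was -0.07. Kif20b went from 57.2, 41.8 and 42.0 CPM to 33.9, 34.1 and 32.5 (-0.49, SE 0.140, edgeR adjusted p = 0.0544), and Kif15 from 56.2, 47.6 and 41.0 to 39.7, 35.4 and 31.7 (-0.44, SE 0.123, edgeR adjusted p = 0.0513). For both genes the groups did not overlap. Without the third p53ERTAM vehicle library 4 kinesin genes were called, and without the third EV vehicle library 2. Kif11 (-0.33, edgeR adjusted p = 0.200), Kif4 (-0.24, adjusted p = 0.242), Kif23 (-0.09, adjusted p = 0.734) and Kif20a (0.02, adjusted p = 0.959) did not pass either.

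Mybl2 and Foxm1 were the regulators of late cell-cycle transcription called in this comparison, lower, at -0.68 (SE 0.128, edgeR adjusted p = 0.0142) and -0.47 (SE 0.122, edgeR adjusted p = 0.0407). None of the 24 mitotic partners was called by edgeR, and DESeq2 and voom called 1 and 6. An unadjusted p below 0.05 was seen for 4, again without the share over all genes. All 8 macrophage markers were higher with combo in p53ERTAM tumors (439 to 507 against 1022 to 1472 CPM), and their part in the kinesin values was not tested.

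The combo effect differed between the vectors for 9 kinesin genes (interaction, combo effect in p53ERTAM minus that in EV), of which 7 were negative and 2 positive. Over all genes 36.0% were called, 17.2% as negative, with a median of 0.13. Kifc2 (-2.94, SE 0.489, edgeR adjusted p = 0.000983) and Kif7 (-2.34, SE 0.371, edgeR adjusted p = 0.000812) had the largest differences. Kifc2 was at 1.64, 3.16 and 2.10 CPM in p53ERTAM vehicle and at 2.09, 2.29 and 1.96 in p53ERTAM combo, and Kif7 at 3.52, 5.14 and 3.85 and at 3.55, 2.99 and 3.37. Their rise with combo was thus seen in the EV libraries and not in the p53ERTAM libraries, where the groups overlapped. Under combo both were lower in p53ERTAM than in EV, by -2.21 (SE 0.340, edgeR adjusted p = 0.000237) and -1.22 (SE 0.258, edgeR adjusted p = 0.00212). Under vehicle Kif7 was higher in p53ERTAM (1.12, SE 0.268, edgeR adjusted p = 0.00551).

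**Figure D4:**
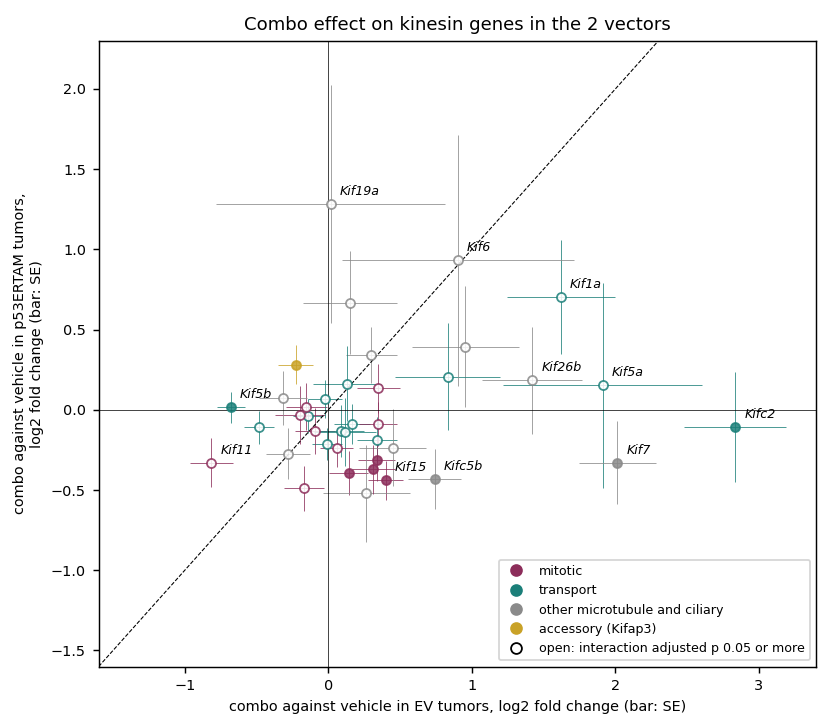
Log2 fold change of combo against vehicle in EV tumors (x axis) and in p53ERTAM tumors (y axis) for the 39 measured kinesin genes, with SE bars, coloured by class; filled points have an interaction with an edgeR adjusted p below 0.05, and the dashed line marks equal effects. Kifc2 and Kif7 lie far right of the line (2.83 and 2.01 in EV, -0.10 and -0.33 in p53ERTAM), and Kif5b lies left of it.

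Among the mitotic kinesins the interaction was called for Kif15 (-0.84, SE 0.173, edgeR adjusted p = 0.00298), Kif18a (-0.65, SE 0.185, edgeR adjusted p = 0.0156), Kifc1 (-0.69, SE 0.216, edgeR adjusted p = 0.0253) and Kif14 (-0.54, SE 0.193, edgeR adjusted p = 0.0445). Each had a positive fitted combo effect in EV and a negative one in p53ERTAM. Kifc5b, the copy of Kifc1, had the same signs (-1.18, SE 0.263, edgeR adjusted p = 0.00463). Kif11 had the opposite sign and was not called (0.48, edgeR adjusted p = 0.0953). With offsets for GC content and gene length Kif18a turned to 0.61, Kif15 and Kif14 lost their calls, Kifc1 kept its call, and Kif11 (0.98) and Kif20b (0.95) were called positive. Kif14 and Kifc1 also lost their calls in 12 and 5 refits in all.

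The positive interactions were those of Kif5b (0.70, SE 0.137, edgeR adjusted p = 0.00230) and Kifap3 (0.51, SE 0.173, edgeR adjusted p = 0.0349). Kif5b stood at 361, 314 and 353 CPM in p53ERTAM vehicle and at 349, 342 and 349 in p53ERTAM combo, above every EV combo library. Its call of higher expression in p53ERTAM under combo (0.25, SE 0.0972, edgeR adjusted p = 0.0482) was lost in 12 refits. The Kifap3 interaction was lost in 9. Of the dynein and dynactin genes 9 of 22 had a positive interaction and none a negative one, with a median of 0.27. Over all genes 18.8% were positive, and of the protein-coding genes 23.1%, with a median of 0.23, close to that of the list. The largest was Dctn3, a dynactin subunit, at 1.33 (SE 0.189, edgeR adjusted p = 0.000499). Of 20 adaptors 5 were positive and 5 negative, with Mapk8ip3 at -1.85 (SE 0.260, edgeR adjusted p = 0.000489). Of 18 intraflagellar transport and hedgehog genes 1 was positive and 4 were negative, with Ift81 at -0.96 (SE 0.155, edgeR adjusted p = 0.000871).

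Cit, the kinase bound by Kif14, rose by 1.31 with combo in EV tumors (SE 0.166, edgeR adjusted p = 0.000174) and had an interaction of -1.62 (SE 0.234, edgeR adjusted p = 0.000537). Ccnb2, a mitotic cyclin, fell by 0.71 in EV (SE 0.145, edgeR adjusted p = 0.00232) with an interaction of 0.69 (SE 0.206, edgeR adjusted p = 0.0200). Of the 24 mitotic partners 20 were not called with combo in EV tumors, 1 was higher and 3 were lower, a smaller share than the 39.9% called over all genes.

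By edgeR 29 of the 39 measured kinesin genes were called in at least 1 of the 5 comparisons, where 69.0% of all genes and 72.3% of the protein-coding genes were, so the count is near the background. The 10 without such a call were Kif1b, Kif3a, Kif13b and Kifc3 among the transport motors and Kif6, Kif9, Kif19a, Kif21b, Kif26a and Kif27 among the others. Of these only Kif6, Kif26a and Kifc3 were also without a call under every alternative, while Kif13b was called in 14 refits and the other 6 in 1 to 5 each. Every measured mitotic kinesin was called in at least 2 comparisons by edgeR. Kif6 and Kif19a had at most 0.698 and 1.18 CPM in any library. Their SE for p53ERTAM against EV under vehicle were 0.846 and 0.783, so the lack of an edgeR call says little. The smallest detectable difference was not computed.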

How the data were processed

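Per the labels' protocols, tumor RNA came from a Direct-zol column kit and went into an Illumina stranded total RNA preparation with Ribo-Zero depletion. Reads were handled with fastp, FastQC, STAR and featureCounts on GRCm38.p5, per the submitters' processing notes, which name no versions. Annotation release and counting strand are not given in the sources used here. The authors deposited raw read counts per gene with the summed exon length, per the file headers. Of counts from 1 to 20, 66.3 to 71.7% were even numbers, which fits counting of each mate of a read pair, so a count may be less than 1 fragment. Symbols came from GENCODE and matched 52489 of 52636 identifiers.

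From the counts, 17970 genes passed filterByExpr and were tested in edgeR 4.0.16 (R 4.3.3; TMM scaling, robust quasi-likelihood F-test, 4 group means over 12 libraries, 8 residual degrees of freedom), with Benjamini-Hochberg adjustment over all of them and a threshold of 0.05. The SE is the log2 fold change divided by the root of F. The 5 comparisons share libraries: each group enters 2 contrasts and the interaction. The procedure was tested on simulated data. Alternatives were DESeq2 1.42.0, limma 3.58.1 (voom), no filter, protein-coding genes only, the replicate block, only the groups compared, and each library left out. GC and length offsets were added after seeing the data. The replicate numbers did not pair the samples, so the block is used only in the closing section. The members and gene lists were chosen with earlier results of these data known. Named per library are Kif4, Kif11, Kif20a, Kif23 and the members of smallest adjusted p, 16 in all. Kif5b, Kif3c and Kif26b are given per library outside this rule. Of each companion list up to 4 genes of smallest p are named. Others, such as Racgap1, Numa1, Ect2 and Cit, were named after their values were seen. CPM are TMM-scaled, and TPM were computed from counts and the deposited lengths. No count table holds molecular identifiers, so precision refers to reads.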

Additional observations from a re-analysis of the deposited data

Results flagged for a closer look

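For 9 kinesin genes the combo effect differed between the vectors by the edgeR interaction test, given as the effect in p53ERTAM minus that in EV on the log2 scale. The difference was -2.94 for Kifc2, -2.34 for Kif7, -1.18 for Kifc5b, -0.84 for Kif15, -0.69 for Kifc1, -0.65 for Kif18a and -0.54 for Kif14. It was 0.70 for Kif5b and 0.51 for Kifap3. Over all genes tested 36.0% had such a difference.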

How the results depend on the processing

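All 12 mitotic kinesins were called lower in p53ERTAM than in EV under combo in every alternative. Under vehicle all 12 were called lower in every alternative except 3. In those, 10 were called with only the groups compared, and 11 without the third EV vehicle or the third p53ERTAM vehicle library. The genes that lost their call kept their direction. The median under vehicle ran from -1.14 to -0.87 and under combo from -1.30 to -1.09. Restricting the fit to protein-coding genes shifted the log2 fold changes of the genes in it. The median shift per gene was 0.13 for combo in EV tumors, -0.11 for the vectors under combo and -0.18 for the interaction. The cause of the changes below was not tested.

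For combo in EV tumors the 10 kinesin calls became 17 with DESeq2 and 16 with protein-coding genes only, and ran from 8 to 15 with a library left out. The mitotic median (0.10) became -0.13 with GC and length offsets, which also turned Kif15 to -0.084 and Kif4 to -0.14. Kif4 was at -0.024 without the first EV combo library. For combo in p53ERTAM tumors the count of all genes called (1129) became 2353 with DESeq2, 3748 with voom and 1890 with only the groups compared, and ran from 77 to 2130 with a library left out (1726 without the third EV vehicle library, 121, 183 and 2130 without p53ERTAM vehicle replicates 1, 2 and 3, and 77, 514 and 96 without p53ERTAM combo replicates 1, 2 and 3). The kinesin calls (0) became 2 with DESeq2, 1 without the filter, 2 with protein-coding genes only, 6 with voom and 1 with only the groups compared, and ran from 0 to 4 with a library left out. Kif20a turned to -0.029 with protein-coding genes only, -0.069 with voom and -0.10 with the offsets, and ran from -0.16 (without the second p53ERTAM vehicle library) to 0.12 with a library left out. Kif23 ran from -0.17 to 0.084, the latter without the first p53ERTAM vehicle library. For the vectors under combo the transport median (0.18) became -0.021 without the filter. For the interaction all genes called (6473 of 17970) became 4086 of 13929 with protein-coding genes only. These sets differ: in the main fit 3207 protein-coding genes were called positive and 1629 negative. The mitotic median (-0.31) became -0.49 with protein-coding genes only and -0.14 with the offsets. Kif18a turned to 0.61 with the offsets. Kif20a turned to -0.0054 with protein-coding genes only and ran from -0.0051 (without the second p53ERTAM vehicle library) to 0.27 with a library left out.

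The replicate numbers did not pair the samples: of 18 same-numbered pairs 2 had a correlation of deviations over 0.1 (range -0.15 to 0.21), and 2 of 12 libraries correlated best with their own number. With the replicate block the kinesin calls were 11 for combo in EV, 0 for combo in p53ERTAM, 24 for the vectors under vehicle, 22 under combo and 10 for the interaction.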
